A study of Homo sapiens with 14 samples.

Results

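The luminal genes studied here, 10 in number, belong to the luminal and estrogen response programme of breast epithelium and were followed through GATA3 peak lists: ESR1, FOXA1, XBP1, SPDEF, TFF1, TFF3, AGR2, AGR3, CA12 and MLPH. Chromatin immunoprecipitation with sequencing (ChIP-seq), which recovers the DNA that a protein occupies, was done with an antibody against GATA3 in a human breast cancer line, MDA-MB-231, which is triple-negative: it lacks the estrogen receptor, the progesterone receptor and amplified HER2. A region was taken as a stretch covered by overlapping peaks of any of the 12 lists, and it belonged to a gene when it overlapped the gene's hg38 span plus 50 kb on either side. By this rule 59 of the 78999 regions of the series belonged to the 10 genes.

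The 6 groups held 2 libraries each: cells labelled GATA3 wildtype (WT), cells with the p.A442M change (A442M), cells with the p.G444E change (G444E), and the same 3 forms carrying FLAG at the C-terminus (WT-FLAG, A442M-FLAG, G444E-FLAG). The sample labels write the changes as A->M and G->E, and the residues come from the design text. All were harvested on day 3 without treatment, and the same GATA3 antibody was used with and without the tag. By the design text the tag stabilises GATA3 protein whatever the mutation. The labels do not say how GATA3 was introduced, whether a line is a clone or whether replicates were separate cultures. The p-values below treat the libraries as independent, although the 2 libraries of a group may be technical repeats. Empty-vector cells (2 samples) were not analysed here and no control list stands beside these regions. The lists hold no expression against which the labelled cell type could be checked.

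GATA3, FOXA1 and the estrogen receptor ESR1 form the core transcription factor circuit of luminal breast cells, in which GATA3 and ESR1 are known to regulate each other and FOXA1 opens chromatin for both. XBP1 and SPDEF act as further luminal transcription factors, TFF1, TFF3, AGR2 and AGR3 encode secreted or secretory-pathway proteins that rise with estrogen or luminal identity, and CA12 and MLPH mark luminal tumours. Triple-negative tumours by definition lack the estrogen receptor, the protein that ESR1 encodes, and ESR1 expression was not measured here.

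Promoter sequences were read from RefSeq (GRCh38.p14) for 8 of the 10 genes (all but TFF1 and TFF3), 15 promoters in all, each 300 bases from 250 before to 50 after a transcript start. The 4 promoters printed here are those that bear on the peak positions. They are the single one of the 15 that a region reached (CA12), and the 3 that hold a GATA word. In the CA12 promoter (chr15:63381797-63382096, minus strand) capitals mark the 255 bases lying in the region 63379145 to 63382051. In the others capitals mark GATA words, meaning the word AGATAA, the word AGATAG, the word TGATAA or the word TGATAG on either strand: AGR2 (chr7:16804950-16805249, minus strand), MLPH (chr2:237486160-237486459, plus strand) and ESR1 (chr6:151806946-151807245, plus strand).
CA12: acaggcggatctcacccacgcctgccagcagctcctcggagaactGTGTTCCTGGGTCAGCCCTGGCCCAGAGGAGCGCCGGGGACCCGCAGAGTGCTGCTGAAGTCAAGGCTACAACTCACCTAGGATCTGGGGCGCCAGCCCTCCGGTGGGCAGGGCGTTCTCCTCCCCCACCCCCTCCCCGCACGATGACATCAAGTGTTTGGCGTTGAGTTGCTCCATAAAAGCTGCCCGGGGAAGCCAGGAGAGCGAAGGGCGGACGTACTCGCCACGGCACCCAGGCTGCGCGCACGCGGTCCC
AGR2: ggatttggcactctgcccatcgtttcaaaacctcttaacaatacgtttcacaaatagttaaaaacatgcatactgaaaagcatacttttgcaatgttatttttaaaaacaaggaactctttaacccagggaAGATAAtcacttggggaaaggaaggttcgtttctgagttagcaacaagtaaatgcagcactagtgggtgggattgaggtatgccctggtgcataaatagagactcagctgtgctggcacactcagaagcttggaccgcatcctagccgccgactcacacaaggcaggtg
MLPH: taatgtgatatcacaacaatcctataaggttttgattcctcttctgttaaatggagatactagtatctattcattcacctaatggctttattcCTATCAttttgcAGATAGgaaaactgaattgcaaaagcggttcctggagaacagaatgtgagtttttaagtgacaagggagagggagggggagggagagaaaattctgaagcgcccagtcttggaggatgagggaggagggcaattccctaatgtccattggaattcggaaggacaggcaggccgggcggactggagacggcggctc
ESR1: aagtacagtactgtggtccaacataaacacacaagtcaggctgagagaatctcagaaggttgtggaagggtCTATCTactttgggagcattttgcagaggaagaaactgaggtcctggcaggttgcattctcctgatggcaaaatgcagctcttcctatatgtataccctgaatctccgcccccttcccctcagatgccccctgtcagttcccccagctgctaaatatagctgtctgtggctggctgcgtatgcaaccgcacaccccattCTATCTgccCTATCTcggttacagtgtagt
No region touched the last 3 of these, although each holds a GATA word. The nearest region lay 3577 bp from the AGR2 promoter, 2534 bp from the MLPH one and 247178 bp from the ESR1 one. Such words occurred in 3 of the 15 member promoters and in 20% of the 22199 promoters of protein-coding genes. The core GGTCA of the estrogen response element, searched on both strands, was in 5 of the 15 and in 35.6% of all promoters, and the forkhead word TGTTTAC was in 0 of the 15 and in 2.85% of all. Overlaps between GATA words and these motifs were not counted, and a match is only a match of letters. A region overlapped 14.5% of all promoters, and one called in all 12 libraries overlapped 1.46%.

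The lists held between 25248 and 51694 peaks, the shortest in untagged WT replicate 2 and the longest in A442M-FLAG replicate 1. Read depth is unknown, so no counting error can be given. Untagged WT and A442M libraries carried 57 to 110 peaks on contigs outside the chromosomes and the 8 other libraries 14 to 24, so comparisons of these 4 libraries with others cannot be told apart from a batch. With 2 libraries against 2, the smallest p an exact test allows is 0.33, and single pairs are therefore described by counts alone.

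Near the 10 genes lay regions shared by every library and regions seen once, both at somewhat larger shares than in the series at large, a difference that was not tested. All 12 libraries called 13 of the 59 regions (22.0%), where calling means having a peak there, against 13.8% of all regions. Another 18 (30.5%) were found in 1 library only, against 23.5%. Member regions made up 0.0741% ± 0.0013 of the regions called in WT (SD, n = 2 for each group), 0.0650% ± 0.0036 in A442M, 0.0870% ± 0.0061 in G444E, 0.0877% ± 0.0039 in WT-FLAG, 0.0722% ± 0.0051 in A442M-FLAG and 0.0769% ± 0.0036 in G444E-FLAG. As counts this was 18 and 21 regions in the WT libraries and 31 and 38 in the WT-FLAG libraries, with 29 to 38 in A442M-FLAG and 22 to 31 in the remaining groups. Regions inside a protein-coding gene span were 32 of 59 (54.2%), against 53.0% of all, and those called in all 12 libraries had a median width of 788 bp, against 902 bp.

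The genes differed widely among themselves. CA12 had 17 regions and MLPH 16, where the median protein-coding gene had 4. Per 100 kb of window this was 10.6 for CA12 and 9.47 for MLPH, above 97.0% and 95.2% of the 20037 protein-coding genes, whose median was 3.06. AGR3 had 7 regions, ESR1 6, AGR2 and TFF1 5 each, TFF3 4, SPDEF 3, XBP1 2 and FOXA1 0. ESR1 has by far the longest span of the 10, so its density of 1.05 per 100 kb stood only at percentile 23.4. TFF1 with TFF3 and AGR2 with AGR3 are neighbours, so 6 of the 59 regions counted for 2 genes. A region called in all 12 libraries lay in the window of 6 of the 10 genes (ESR1, TFF1, AGR3, MLPH, CA12 and SPDEF), against 40.6% of all protein-coding genes.

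**Figure D1:**
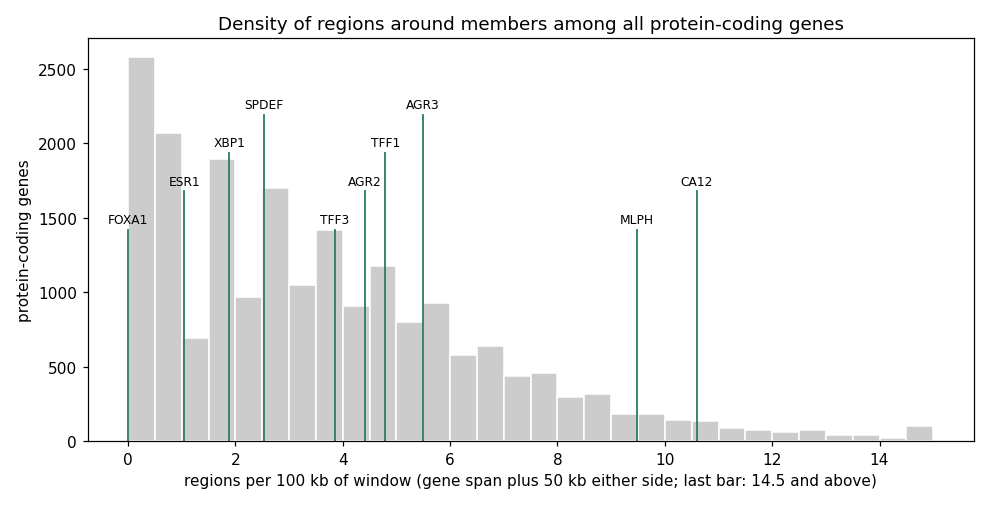
Histogram of regions per 100 kb of window over 20037 protein-coding genes (x axis, gene span plus 50 kb either side; y axis, number of genes), with a green line at the value of each of the 10 genes. CA12 at 10.6 and MLPH at 9.47 stand in the upper tail, FOXA1 at 0.

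Among the transcription factors, FOXA1, the pioneer factor of luminal cells, had no region in any of the 12 lists. Its nearest region ended 353220 bp away (chr14:37236113-37236332) and was called in 1 library, and the nearest called in all 12 lay 695346 bp away. Only 1.68% of protein-coding genes lay farther from any region, while 11.6% had none within 50 kb.

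ESR1, the estrogen receptor gene, spans chr6:151656672-152129619, and its regions all lay towards the far end of the gene. The first one met from the start was 397702 bp from the first RefSeq promoter, and the 6 RefSeq promoters of ESR1 lay 245267 to 397702 bp from a region. Inside the span were 4 regions and the remaining 2 lay beyond it, inside SYNE1. Of the 3 called by all 12 libraries, that at 152085606 to 152086106 had the highest scores. Its score percentile, the percentage of peaks of the same list with a lower score (ties at mid-rank), was 94.0 and 90.4 in WT, 92.1 and 87.4 in A442M, 72.9 and 53.6 in G444E, 76.4 and 69.3 in WT-FLAG, 83.1 and 70.3 in A442M-FLAG, and 81.1 and 66.5 in G444E-FLAG. The 4 lists of untagged WT and A442M thus had the highest places and G444E replicate 2 the lowest, but the authors' scores rank peaks within a list, and places in lists of different length show no change by themselves. The region at 152054423 to 152055056 stood between percentile 28.9 and 86.0, and that at 152170802 to 152171683, inside SYNE1, between 11.3 and 60.6. A weaker region at 152090161 to 152090479 was called in both A442M libraries (percentiles 40.5 and 19.2), in WT-FLAG replicate 1 (10.8) and A442M-FLAG replicate 1 (16.7), and in neither untagged WT nor any G444E library.

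XBP1, a factor of the unfolded protein response that is abundant in luminal tumours, had 1 region seen in more than 1 library. It covered the 3' end of the gene (chr22:28794121-28794789, gene 28794560 to 28800569, minus strand) and lay 5239 bp or more from both XBP1 promoters. It was called in 7 libraries: WT replicate 1 (percentile 6.0), G444E replicate 1 (40.8), both WT-FLAG libraries (30.4 and 17.4), both A442M-FLAG libraries (42.8 and 57.4) and G444E-FLAG replicate 2 (30.1). Neither A442M library had it, so both A442M-FLAG libraries and no untagged A442M library called it.

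SPDEF, an ETS factor of secretory epithelium, had none inside its span (chr6:34537802-34556329, minus strand) and 2 upstream of its start. The region at 34567959 to 34568554, centred 11927 bp upstream, was called in all 12 libraries at percentiles of 72.1 to 92.3. Its values were 88.6 and 84.2 in WT, 86.4 and 87.2 in A442M, 86.6 and 87.7 in G444E, 89.1 and 81.7 in WT-FLAG, 90.3 and 72.1 in A442M-FLAG, and 92.3 and 83.1 in G444E-FLAG. Nearer the gene, the region at 34560505 to 34561340, centred 4593 bp upstream, was called in 10 libraries and missed by replicate 2 of WT and of G444E. A region at 34512836 to 34513386, inside PACSIN1, was called in both WT-FLAG libraries and neither A442M-FLAG library.

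Of the secretory genes, TFF1, the trefoil peptide used as the classical readout of estrogen action, had a region across the upper end of its span. TFF1, whose promoter and strand were not read here, lies at chr21:42362282-42366535, and the region at 42365986 to 42367038 had its centre 23 bp from that end. It was called in all 12 libraries, at percentiles of 90.6 and 79.4 in WT, 86.8 and 68.8 in A442M, 92.1 and 73.7 in G444E, 92.0 and 78.7 in WT-FLAG, 96.2 and 86.8 in A442M-FLAG, and 95.9 and 79.3 in G444E-FLAG. In each of the 6 groups replicate 1 stood above replicate 2. Within each replicate number A442M-FLAG was highest and untagged A442M lowest. TFF3, a trefoil peptide of mucus, lies at 42311667 to 42315409 and had no region in its span. Both trefoil genes share the region at 42351030 to 42351575, whose nearest gene end, 308 bp away, is that of TFF2. It was called in 7 libraries, both of G444E (35.4 and 0.16) and WT-FLAG (41.2 and 8.40) and replicate 1 of A442M, A442M-FLAG and G444E-FLAG, and in neither untagged WT library.

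AGR2, a disulfide isomerase family protein of the secretory pathway, had its own region 3780 bp inside the gene from its start (chr7:16801065-16801373), called in 4 FLAG libraries (WT-FLAG 32.6 and 12.6, A442M-FLAG replicate 1 30.6, G444E-FLAG replicate 1 32.9) and in 0 of 6 untagged ones (Fisher's exact test, two-sided, p = 0.0606, the smallest that 4 calls allow, so it was left out of the adjusted test). The peaks of this AGR2 region ranked 27131 to 35903 in their lists, beyond the 25248 peaks that the shortest list holds. Between AGR2 and its paralogue AGR3 lay the region at 16847408 to 16847802, called in 8 libraries at percentiles of 67.3 to 88.7. All 6 replicate 1 libraries called it, and of the replicate 2 libraries only those of untagged WT (80.4) and A442M (81.0) did. AGR3 held a region inside its span at 16872606 to 16873597, called in all 12 libraries. It stood at 39.8 and 60.8 in WT, 84.3 and 85.7 in A442M, 69.9 and 86.6 in G444E, 81.5 and 83.3 in WT-FLAG, 73.6 and 88.0 in A442M-FLAG, and 72.0 and 62.1 in G444E-FLAG. Both untagged WT libraries lay below all 10 others here. The same was seen at the second AGR3 region called in all 12, upstream of the gene at 16915253 to 16916556, with 19.0 and 1.33 in WT and 35.2 to 68.7 in the others. How many regions of the series place untagged WT lowest was not counted, here or for the CA12 and RAB17 regions below. Untagged WT placed highest at the CA12 region at 63344813 and the MLPH region at 237500811. Upstream of AGR3 the region at 16926311 to 16926776 was called in 5 FLAG libraries at percentiles of 70.5 to 77.9, in A442M replicate 1 at 40.2, and in neither untagged WT library (Fisher's exact test, 5 of 6 FLAG against 1 of 6 untagged, p = 0.0801, Benjamini-Hochberg adjusted p = 0.365).

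CA12 encodes a carbonic anhydrase of the cell surface and is an estrogen-responsive marker of luminal tumours. It lies at chr15:63321378-63381846 on the minus strand, and 10 of its 17 regions fell inside the span. The strongest was intragenic, at 63344813 to 63345446, centred 36717 bp from the start and called in all 12 libraries. Its percentile was 99.2 and 98.8 in WT, 97.6 and 95.2 in A442M, 97.8 and 96.4 in G444E, 96.4 and 91.1 in WT-FLAG, 90.0 and 83.2 in A442M-FLAG, and 96.9 and 89.0 in G444E-FLAG. Untagged WT placed it highest, at ranks 218 and 312 of its lists, and A442M-FLAG lowest, at ranks 5184 and 7238 of longer lists. Close by, the region at 63346952 to 63347739 was also called in all 12 libraries, at percentiles of 27.3 to 80.8, with replicate 1 above replicate 2 in each of the 6 groups. Outside the gene, inside APH1B, 11 libraries called a region (63291188 to 63292842) that stood highest in A442M-FLAG (88.1 and 82.4) and missed by WT replicate 1.

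The region at the CA12 start joined peaks of unlike position and strength. All 12 libraries had a peak within 63379145 to 63382051, and 19 peaks were merged there. Untagged WT libraries had a narrow peak each, 63379466 to 63379827 (percentile 57.0) and 63379400 to 63379790 (74.7). The other 10 had their highest peak over the same stretch at percentiles of 86.3 to 96.9, above both untagged WT libraries. The CA12 promoter printed above was reached in 5 libraries only. In 4 of them this was by weak separate peaks at percentiles of 3.93 (A442M replicate 1), 8.60 (WT-FLAG replicate 1), 10.8 (A442M-FLAG replicate 1) and 13.1 (G444E-FLAG replicate 1), and in WT-FLAG replicate 2 by 1 broad peak from 63379176 to 63381982. So the stretch called in all libraries lay inside the gene, and not on the promoter itself.

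Several weaker CA12 regions were seen mostly in FLAG libraries. That at 63383007 to 63383856, 1161 bp beyond the start of the gene, was called in 5 of 6 FLAG libraries (percentiles 66.7 and 55.1 in WT-FLAG, 58.5 and 59.5 in A442M-FLAG, 54.8 in G444E-FLAG replicate 1) and in 0 of 6 untagged ones. The region at 63359547 to 63360288, inside the gene, was called in all 6 FLAG libraries and in both G444E libraries, and in no untagged WT or A442M library. Its percentile was highest in A442M-FLAG, 72.0 and 68.9, against 7.76 and 54.3 in WT-FLAG, 31.8 and 28.2 in G444E-FLAG and 12.7 and 19.0 in G444E. At 63362390 to 63362654 a region was called by the A442M-FLAG libraries alone, at percentiles of 52.0 and 39.5. The number of CA12 regions called was 3 to 6 in untagged libraries (median 5) and 6 to 12 in FLAG libraries (median 10). When each list was cut to its 25248 highest peaks, the length of the shortest list, it was 3 to 6 (median 4) and 5 to 9 (median 6), ranges that overlap. Within the 6 pairs of libraries of the same form and replicate number, FLAG had more CA12 regions than untagged in 6 of 6, both with the lists as deposited and with equal lists. This held for 9.07% of protein-coding genes with the lists as deposited and 1.56% with equal lists, and for 46.5% and 11.5% of the 1019 genes with as many regions as CA12 or more. No other of the 10 genes was higher in 6 of 6 under either. In the G444E pairs the CA12 counts as deposited were close, 5 and 6 untagged against 6 and 7 with the tag. The remaining pairs all hold an untagged WT or A442M library, whose difference from other libraries cannot be told apart from a batch. With equal lists MLPH and ESR1 had fewer regions with the tag in 5 of 6 pairs each, where with the lists as deposited MLPH had more in 5 of 6 and ESR1 more in 1 and fewer in 1.

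MLPH encodes melanophilin, an adaptor for organelle transport that is high in luminal tumours. It lies at chr2:237486410-237555322 on the plus strand, and its 4 regions inside the gene lay in the first part of the span. A pair close to the start, at 237489232 to 237489951 and 237491790 to 237492439, were called in 11 and 12 libraries, and the library that missed the first was WT replicate 2. The second stood at 9.87 and 65.8 in WT and at 50 to 83.3 in the other 10 libraries. Another, at 237500811 to 237501275, had its highest places in untagged WT (93.2 and 78.8). It was called in A442M (78.6 and 38.3) and in replicate 1 of G444E (72.8), WT-FLAG (75.8) and G444E-FLAG (72.7), and in neither A442M-FLAG library. Upstream, the region at 237465526 to 237465934 was called in all 12 libraries, and its percentile was 64.6 to 73.2 in the replicate 1 libraries and 7.0 to 48.0 in those numbered 2.

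The MLPH window also reached regions that lie nearer other genes. The region at 237594396 to 237595531, whose nearest gene end is that of RAB17, a GTPase of epithelial vesicle transport, was called in all 12 libraries. It was at percentile 47.6 and 35.1 in WT, 88.5 and 82.1 in A442M, 91.1 and 82.5 in G444E, 97.7 and 93.8 in WT-FLAG, 99.1 and 97.2 in A442M-FLAG, and 97.1 and 89.3 in G444E-FLAG. By rank this ran from 15130 and 16376 in the untagged WT lists to 461 and 1196 in the A442M-FLAG lists, although the latter are longer. Next to it the region at 237590239 to 237591662 lay across the upper end of the RAB17 span, whose strand was not read. That region was called in 5 of 6 FLAG libraries at percentiles of 10.3 to 36.1 and in 0 of 6 untagged ones. On the other side of MLPH, 44179 bp before its start and nearer COL6A3, the region at 237441176 to 237442231 was called in 10 libraries at percentiles of 17.7 to 74.2 and missed by untagged WT alone.

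**Figure D2:**
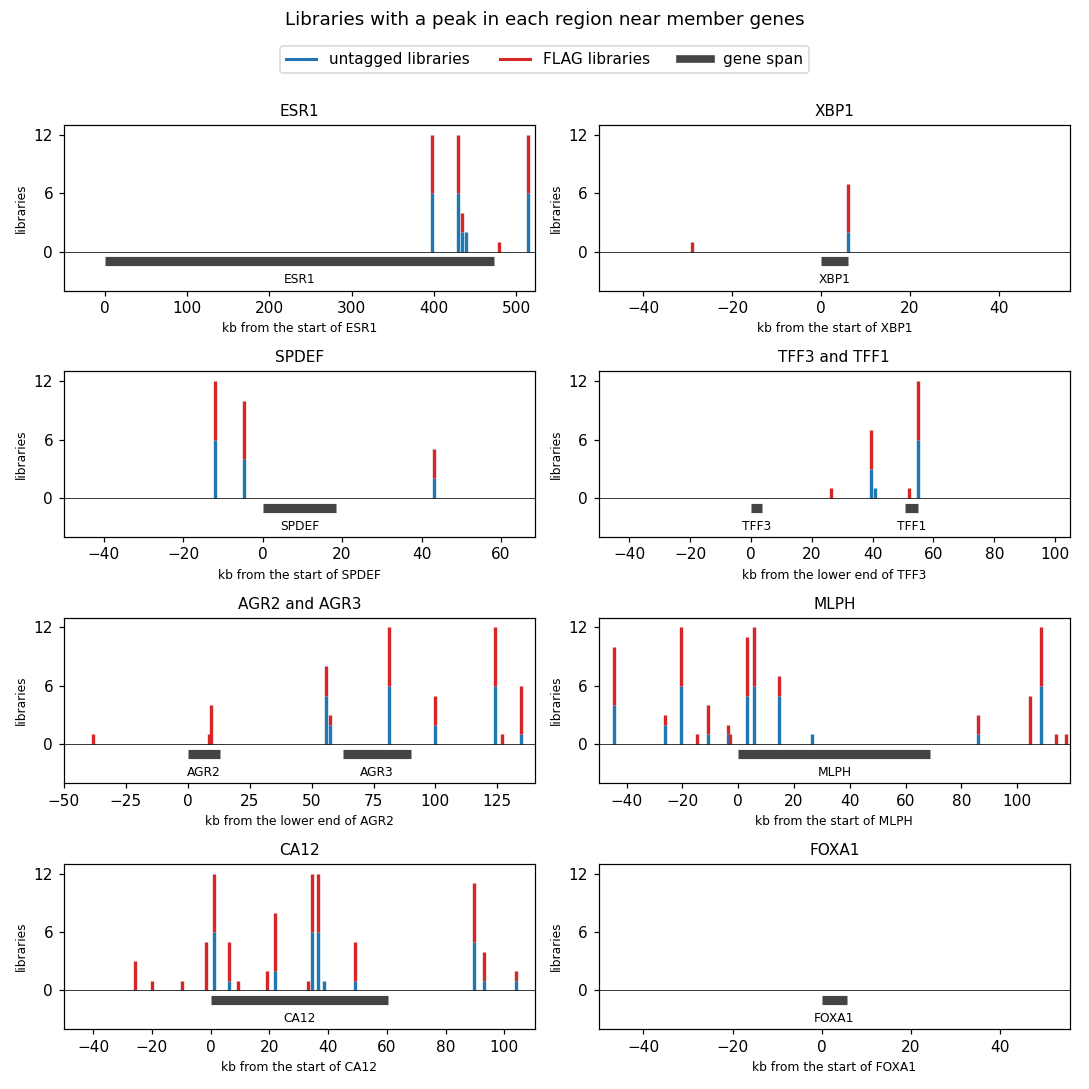
Number of libraries with a peak in each region (y axis, blue for untagged and red for FLAG, stacked) against distance in kb from the start of the gene, or from the lower end of the first gene where 2 genes share a panel. ESR1 regions stand towards the far end of its span, CA12 and MLPH have the most, and FOXA1 has none.

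**Figure D3:**
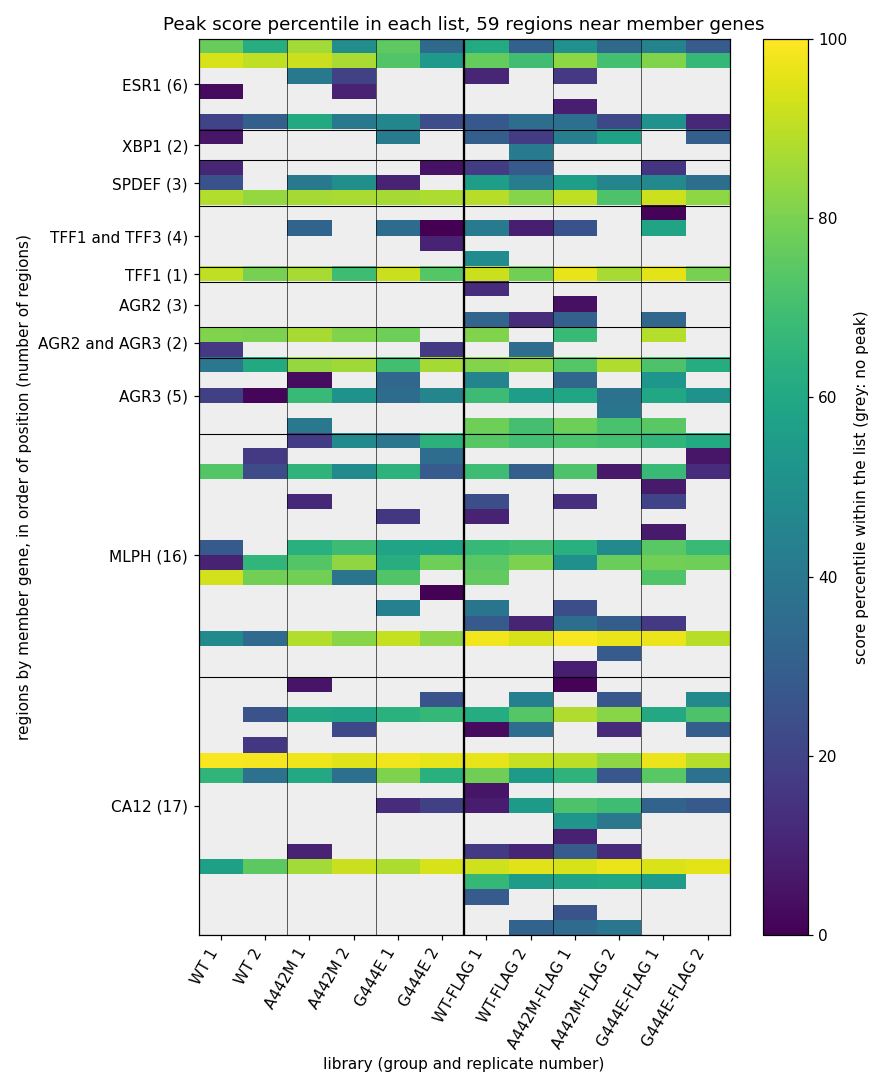
Score percentile of the highest peak in each of the 59 regions (rows, by gene and position) in each of the 12 libraries (columns, untagged left and FLAG right of the thick line), with grey where a library had no peak. Rows filled across all columns are the 13 regions called in every library, among them the bright CA12, SPDEF, TFF1 and ESR1 rows.

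Whether the tag changed the calls was tested region by region with Fisher's exact test, 6 FLAG against 6 untagged libraries. Benjamini-Hochberg adjustment covered the 11777 regions of the series called in 5 to 7 libraries, where Fisher's exact test could reach p = 0.05. Regions with fewer or more calls were left out, among them the 13 member regions called in all 12 libraries. Also left out was the CA12 region at 63359547, called in 6 FLAG and 2 untagged libraries. No member region had an adjusted p of at most 0.05, and 0.0% of all tested regions did. The smallest adjusted p of any region was 0.104, which belongs to a complete split of the 12 libraries (exact p = 0.00216). As not even such a split passed, the absence of calls says nothing about a single region. At an unadjusted p of 0.05, 2 of the 10 testable member regions passed, both called more often with the tag, against 11.3% of tested regions in that direction, 1.63% in the other and 12.9% (1521) in either. These were the regions at 63383007 near CA12 and at 237590239 in the MLPH window, each called in 5 of 6 against 0 of 6 libraries (Fisher's exact test, p = 0.0152, Benjamini-Hochberg adjusted p = 0.117). The same 5 libraries called both, and G444E-FLAG replicate 2, the shortest FLAG list, called neither. The peaks of the MLPH region ranked 30326 to 33541 in their lists, so no library called it with lists cut to 25248 peaks. Those of the CA12 region ranked 14392 to 21465 and were kept.

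For 8 mutant against 4 WT libraries, Fisher's exact test gave 0 of 19 testable member regions at an adjusted p of at most 0.05, and 0.0% of the 26654 regions tested. At an unadjusted p of 0.05 it was 0 of 19 as well, against 0.206% of regions higher and 0.105% lower in the mutants, 0.311% (83) in all. The smallest adjusted p of any region was 1, that of complete splits included (exact p = 0.00202), so not even a complete split passed. Over this many regions, a split region passes only where many others are split too. The 0 thus says nothing about the mutants at any single region. Among the 19, the lowest p was that of the SPDEF region at 34512836, called in 2 of 8 mutant and 3 of 4 WT libraries (Fisher's exact test, p = 0.222, adjusted p = 1). The MLPH region at 237441176 was called in 8 of 8 mutant libraries and, among WT, in the 2 with the tag, but 10 calls are too many for the exact test to reach the threshold and it was left out.

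For single pairs of groups, a region counted when a group's libraries both called it and those of the other group did not, out of the regions that any of the 4 called. WT-FLAG against untagged WT had the most: 9 of 45 member regions were called with the tag only, against 16.8% of all regions, and 0 without it, against 4.34%. They lay at TFF1 and TFF3 (42351030), AGR2 (16801065), AGR3 (16926311), MLPH (237441176 and 237590239) and CA12 (63332200, 63359547, 63375211 and 63383007). A442M-FLAG had 6 of 44 absent from A442M, against 12.5%, at XBP1 (28794121), MLPH (237590239) and CA12 (63359547, 63362390, 63383007 and 63407517). The reverse was 1 of 44, against 4.71%, the MLPH region at 237500811. G444E-FLAG and G444E had 0 of 40 on either side, against 3.57% with the tag and 0.7% without it.

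Without the tag, A442M had 2 of 33 member regions absent from WT, against 11.0%, at ESR1 (152090161) and MLPH (237441176), and WT had 0 absent from A442M, against 1.08%. G444E had 3 of 33 absent from WT, against 8.72%, at TFF1 and TFF3 (42351030), MLPH (237441176) and CA12 (63359547), and WT had 0 absent from G444E, against 6.27%. These comparisons and the one of WT-FLAG with WT share the untagged WT libraries, whose lists averaged 27069 peaks, the fewest of the 6 groups. Set against each other, A442M and G444E had 1 of 38 each, the ESR1 region at 152090161 for A442M, against 8.28%, and the CA12 region at 63359547 for G444E, against 1.38%.

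With the tag, A442M-FLAG had 1 of 51 absent from WT-FLAG, against 7.15%, the CA12 region at 63362390, and WT-FLAG had 1 of 51 absent from A442M-FLAG, against 1.89%, the region of SPDEF at 34512836. G444E-FLAG had 0 of 46 absent from WT-FLAG, against 0.659%, and WT-FLAG 1 of 46 absent from G444E-FLAG, against 3.11%, at CA12 (63375211). A442M-FLAG had 3 of 48 absent from G444E-FLAG, against 11.0%, all at CA12 (63362390, 63375211 and 63407517), and G444E-FLAG 0, against 1.38%. With counts of 0 to 9, a difference between member shares and those of all regions was not tested.

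**Figure D4:**
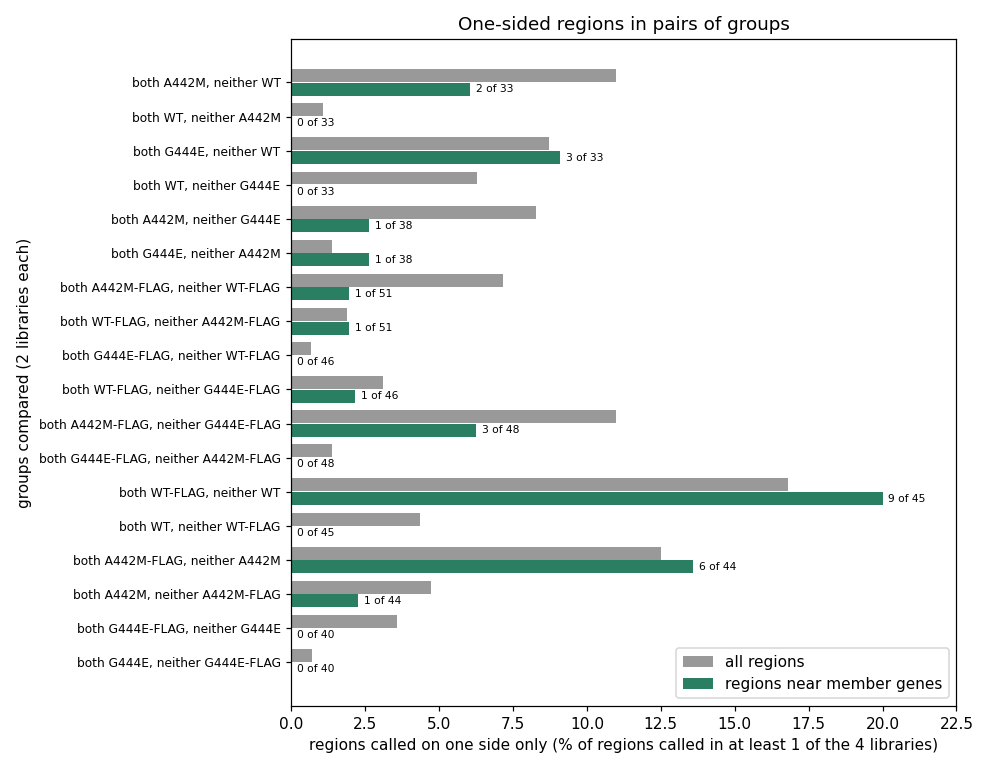
Share of regions that a group's libraries both called and the other group's did not (x axis, % of regions called in at least 1 of the 4 libraries) for 9 pairs of groups in each direction, grey for all regions and green for the 59 near the 10 genes, with the count beside each green bar. The longest green bar is that of WT-FLAG against WT, 9 of 45.

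Other genes of the same programme were read from lists written for this comparison. Of 18 luminal epithelial genes, 11 had a region called in all 12 libraries within 50 kb, among them KRT8 and KRT19, keratins of simple epithelium (3 regions each), and CDH1, the epithelial cadherin (4). TOX3, a luminal chromatin factor, had no region at all, like FOXA1. Of 14 estrogen response genes 6 had such a region, among them PGR, the progesterone receptor (1), and PDZK1, a scaffold protein (4), while GREB1, a cofactor of the estrogen receptor, had 7 regions of which 0 were called in all libraries. Of 12 basal epithelial genes, taken as the other epithelial lineage of the breast, 10 had one, among them EGFR (3) and SOX9 (4), and KRT6B had no region. The share over all protein-coding genes was 40.6%. The median density was 4.14 regions per 100 kb for the 10 genes, 6.34 for the luminal, 5.26 for the estrogen response and 6.98 for the basal list, against 3.06 over all genes.

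Neither Fisher's exact test called a region of these 3 lists at an adjusted p of at most 0.05. At an unadjusted p of 0.05, 3 of 18 luminal, 1 of 14 estrogen response and 4 of 12 basal genes had a region called more often with the tag, against 2 of the 10 member genes and 8.88% of all protein-coding genes. In each list 0 genes had one called less often, against 0.928% of all. For mutants against WT it was 0 in each list, against 0.464% of all genes with a region higher and 0.155% with one lower. A region of WT-FLAG absent from WT lay near 12 of 18 luminal, 6 of 14 estrogen response, 10 of 12 basal and 6 of the 10 member genes, against 40.3% of all protein-coding genes, and the reverse near 1, 1, 1 and 0, against 9.87%. In the same order of lists, A442M-FLAG over A442M gave 13, 5, 9 and 3 genes, against 36.2%, and the reverse 1, 1, 2 and 1, against 14.4%. For G444E-FLAG over G444E these were 4, 2, 4 and 0, against 11.7%, with 0, 0, 0 and 0 in reverse, against 2.01%. Over all protein-coding genes, too, regions with the tag only were more common than the reverse. With equal lists the member regions of A442M turned, to 2 of 25 with the tag and 3 of 25 without it. The shares over all regions were then 10.4% and 9.25%. The counts that follow are again of genes, in the same order of lists and with the peak lists as deposited. For A442M over WT these were 12, 5, 5 and 2, against 27.1%, with 1, 0, 0 and 0 in reverse, against 2.79%. For G444E over WT these were 8, 5, 5 and 4, against 21.6%, with 2, 1, 2 and 0 in reverse, against 11.5%. For A442M over G444E these were 3, 1, 4 and 1, against 18.6%, with 3, 0, 1 and 1 in reverse, against 5.5%. In G444E over WT, TFF1 and TFF3 count by the same region. For A442M-FLAG over WT-FLAG these were 7, 3, 5 and 1, against 23.3%, with 3, 2, 0 and 1 in reverse, against 8.56%. For G444E-FLAG over WT-FLAG these were 0, 0, 1 and 0, against 2.93%, with 2, 0, 5 and 1 in reverse, against 11.0%. For A442M-FLAG over G444E-FLAG these were 6, 5, 7 and 1, against 31.4%, with 2, 4, 1 and 0 in reverse, against 6.08%. These lists share neighbouring genes, such as KRT8 with KRT18 and TFF2 with TFF1, whose windows hold the same regions.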

How the data were processed

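Peak lists of 12 GATA3 ChIP-seq libraries were used. The submitters' processing notes name FastQC, MACS2 2.1.4 and the build hg38. The aligner, the control and any filter were not given in the sources used here. A deposited list holds 1 library's peaks with a score per peak on a scale the files do not name, at least 5.00 in every list, and this score was read only within its own list. Depth is unknown.

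The 433307 peaks were merged where they overlapped by 1 bp. Gene spans came from RefSeq (GRCh38.p14, the same chromosome coordinates as hg38), with no exons. Calls were tested with Fisher's exact test (two-sided) and Benjamini-Hochberg adjustment, tested on simulated data (Python 3.11.15, scipy 1.17.1). The members, lists and tests were chosen with earlier results of these data known. All 10 genes are named. For each, the region called by most libraries is given, and for each pair of groups the one-sided region with the highest lower percentile. Further regions were named after their values were seen. Labels number the replicates 1 and 2 without saying what they share. The difference between replicates 1 and 2 correlated across regions between every pair of groups (0.113 to 0.290 over 15 pairs). From these data the numbers were taken to pair the libraries in the replicate block and in the pairs of the same form. The main Fisher tests did not use this pairing. Alternatives were a score of at least 10, lists cut to the 25248 highest peaks (equal lists), peaks covering 50% of a region, a 10 kb window, each library left out, and labels exchanged only within replicate numbers.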

Additional observations from a re-analysis of the deposited data

How the results depend on the processing

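Depth is unknown, and list length limits every count. With equal lists, 37 member regions were called in any and 7 in all libraries, 4 in all with 50% cover, and with a 10 kb window 34 and 8, against 59 and 13. Leaving out each library gave 54 to 59 and 13 to 14. Both Fisher tests called 0 member regions under every alternative run, but no region of the series passed under any of them, so this is no sign of stability: the smallest adjusted p was 0.0680 for the tag and 0.864 for the mutants. In the replicate block, with labels exchanged within replicate numbers, the count stayed 0, the adjusted p of the CA12 region at 63383007 and of the MLPH region at 237590239 was 0.0680, and no other call changed. Over its alternatives that adjusted p of the CA12 region ran from 0.0680 to 0.165.

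Counts in both libraries of a group and neither of another moved as follows, cause not tested. With a score of at least 10, A442M over WT had 1 of 23 member regions, against 12.5% of all regions. G444E over A442M had 0 of 28, against 1.35%. WT-FLAG had 0 of 42 over A442M-FLAG, against 1.91%, and 0 of 37 over G444E-FLAG, against 3.43%. WT-FLAG over WT had 4 of 37, against 19.3%, and G444E-FLAG over G444E 2 of 30, against 3.63%. With equal lists, A442M over WT had 0 of 24, against 6.53%, and G444E over WT 1 of 29, against 8.02%. G444E over A442M had 0 of 30, against 3.72%. A442M-FLAG over WT-FLAG had 0 of 31, against 5.59%, and 0 the other way, against 4.12%. WT-FLAG over G444E-FLAG had 0 of 31, against 1.74%. A442M-FLAG over G444E-FLAG had 0 of 28, against 7.41%, and 1 the other way, against 4.78%. WT-FLAG over WT had 3 of 31, against 11.5%. A442M-FLAG over A442M had 2 of 25, against 10.4%, and 3 the other way, against 9.25%. G444E-FLAG over G444E had 1 of 31, against 1.81%. With 50% cover, WT over G444E had 1 of 30, against 7.02%. A442M over G444E had 2 of 33, against 9.99%, and 2 the other way, against 2.04%. WT-FLAG had 3 of 51 over A442M-FLAG, against 3.0%, and 3 of 45 over G444E-FLAG, against 4.57%. A442M-FLAG over G444E-FLAG had 5 of 47, against 13.3%, and WT-FLAG over WT 15 of 43, against 22.2%.

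Leaving out each library, which leaves 1 library in an arm and so admits more regions, gave 3 to 8 for A442M over WT (0 to 3 the other way), 4 to 6 for G444E over WT (0 to 2), 1 to 5 for A442M over G444E (1 to 7), 1 to 7 for A442M-FLAG over WT-FLAG (2 to 7), 0 to 3 for G444E-FLAG over WT-FLAG (3 to 8), 4 to 11 for A442M-FLAG over G444E-FLAG (0 to 5), 10 to 18 for WT-FLAG over WT (0 to 2), 6 to 13 for A442M-FLAG over A442M (1 to 3) and 0 to 8 for G444E-FLAG over G444E (0 to 3). The 18 came without WT-FLAG replicate 2, the 13 and 11 without A442M-FLAG replicate 2, the 8 of G444E-FLAG over G444E without G444E-FLAG replicate 2, and the 8 of A442M over WT without A442M replicate 2. No share over all regions stands beside these ranges, so they are not read as a result about the members.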

Other observations

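Some member regions were called under a single replicate number only. Of the 37 called in 3 or more libraries, 3 were called in 3 or more replicate 1 libraries and in no replicate 2 library (8.11%, the same share as over all regions, 8.11%), and 2 the other way (5.41%, against 2.70%). The region upstream of AGR3 at 16891418 to 16891844 was called in replicate 1 of A442M (percentile 3.18), G444E (33.0), WT-FLAG (45.2), A442M-FLAG (33.2) and G444E-FLAG (52.7). The region in the CA12 window at 63288553 to 63289194, inside APH1B, was called in replicate 2 of G444E (25.8), WT-FLAG (43.3), A442M-FLAG (27.0) and G444E-FLAG (47.0). Both were absent from untagged WT, and the second also from untagged A442M. For a region called under a single replicate number, such an absence is a missing call in a single library of the group. A difference between groups was not tested.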
